A study of Homo sapiens with 12 samples.

Results

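The mitochondrial ribosomal protein genes are the nuclear genes whose symbol is MRPL or MRPS followed by a number and, in some, a letter. By this rule 88 rows of the count table matched, and they held 78 symbols, so one row was kept for each symbol, the one with the highest summed count. The 78 genes were set against 23500 listed genes, of which 17162 reached the summed count of 10 needed for the test, all 78 members among them. Of the members, 51 encode proteins of the large subunit and 26 proteins of the small subunit. MRPS36 has the symbol of a small subunit gene but its product is a component of the 2-oxoglutarate dehydrogenase complex. It was counted in neither subunit and in neither class of kinship, but it stays among the 78 in counts, medians and sums over all members. MRPS30 and MRPS18A carry a small subunit symbol and are proteins of the large subunit, where they were counted. By kinship, 45 members have a counterpart in the bacterial ribosome, 31 are specific to mitochondria, and MRPL55 was left unassigned.

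The mitochondrial ribosome sits in the mitochondrial matrix and translates only the mRNAs of the mitochondrial genome, which encode core subunits of the respiratory chain and of the ATP synthase. Its ribosomal RNA is transcribed in the organelle, while all of its proteins are encoded in the nucleus, made in the cytosol and imported. Compared with the bacterial ribosome from which it descends it has lost RNA and gained proteins, so that its protein set is a mixture of old and mitochondria-specific subunits.

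RNA was sequenced from HEK293T, a human embryonic kidney line that cannot grow when methionine is replaced by its precursor homocysteine, and from R1, a HEK293T derivative selected as 1 clone for growth in homocysteine. The R1 libraries carry R1 in their titles while the cell line field reads HEK293T. Each line was kept for 12 h in medium with methionine (+Met) or in medium with homocysteine in its place (−Met+Hcy), with 3 libraries for each of the 4 groups. Nothing in the labels says that libraries of a group came from separate cultures, so p-values measure the spread between these libraries, and since R1 is 1 clone a difference between R1 and HEK293T cannot be told apart from a difference between clones.

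The libraries held between 12664158 and 18771349 estimated counts. Of 11 breast carcinoma markers, 7 to 10 were at 0 in each library and their summed level stayed at or below 4.42 CPM (counts scaled to a common library total), against 99.6 to 244 CPM for 5 markers of HEK293 cells and 19.6 to 88.6 CPM for 6 markers of blood and fibroblasts, mostly COL1A1 and COL3A1. In R1 in −Met+Hcy medium, replicate 3 stood apart. Its level relative to the other 2 libraries of the group ran against the GC content of the transcript, with a Spearman rho of -0.742 over 11617 genes and of -0.756 over the 78 members, a description across genes that share the library. Libraries of the other groups had trends too, with rho over the 11617 genes from -0.332 to 0.541 for GC content and from -0.466 to 0.544 for length. Counts of members that passed are given with and without replicate 3 of R1 in −Met+Hcy medium, and so are values of single members where its removal changed a call or moved the value by over 1.5 times.

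Promoter stretches are shown for members whose RNA level differed in the comparisons that follow, since ETS and YY1 sites are well known in promoters of nuclear genes for mitochondrial proteins. RefSeq promoter sequences (GRCh38.p14, 250 bases before to 50 after the start site) were found for 69 of the 78 members, with 85 start sites. The letters CCGGAAG, the core bound by ETS factors such as GABPA, were found on either strand in the promoters of 30 of the 69 members, 43.48%, against 12.16% of the 27305 symbols with a promoter. The letters AAGATGGC, the core bound by YY1, were found in 21 of 69, 30.43%, against 3.52% of all symbols. The letters CGCATGCG, bound by NRF1, were found in 3 of 69, 4.35%, against 2.46%. A match is a description of the sequence and not a bound site, and AAGATGGC holds an ATG, so that a match just after the start site can be a start codon. The median ETS match in the members began 26 bases before the start site, and 16 of the 24 YY1 matches lay in the 50 bases after it. The stretches run from 120 bases before to 30 bases after the start site, 5′ to 3′ on the strand of the gene, with every match to the 3 letter strings in capitals. MRPL47, MRPL54, MRPL20 and MRPS12 hold the ETS core, MRPL47, MRPL20, MRPL36 and MRPS30 the YY1 core and MRPL17 a pair of NRF1 matches. MRPL48 and, at a single start site, MRPL18 hold the ETS core as well. MRPS9, the 1 member that passed the test as higher in R1, holds none of the 3 in this window. Nor do MRPL1, MRPL4, MRPL9, MRPL11 and MRPS2, which passed as lower in R1 in at least 1 medium, nor MRPS6. MRPS18B, which passed as lower in −Met+Hcy medium, has a YY1 match whose first base is base 24 after the start site. That match runs past the end of this window. Apart from that of MRPS9, stretches of members with no match inside the window are not printed, nor are those of MRPL48 and MRPL18.
MRPL47, GRCh38 chr3:179604617-179604766, minus strand: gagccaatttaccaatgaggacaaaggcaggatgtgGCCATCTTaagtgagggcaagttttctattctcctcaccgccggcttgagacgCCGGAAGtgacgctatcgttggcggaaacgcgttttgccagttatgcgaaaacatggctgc
MRPL54, GRCh38 chr19:3762562-3762711, plus strand: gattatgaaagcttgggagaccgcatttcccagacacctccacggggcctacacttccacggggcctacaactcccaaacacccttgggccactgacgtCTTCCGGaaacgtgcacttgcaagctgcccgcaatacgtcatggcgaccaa
MRPL20, GRCh38 chr1:1407264-1407413, minus strand: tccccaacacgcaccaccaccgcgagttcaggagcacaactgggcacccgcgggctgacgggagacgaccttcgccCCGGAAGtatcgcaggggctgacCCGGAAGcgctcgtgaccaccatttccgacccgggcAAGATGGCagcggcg
MRPS12, GRCh38 chr19:38930834-38930983, plus strand: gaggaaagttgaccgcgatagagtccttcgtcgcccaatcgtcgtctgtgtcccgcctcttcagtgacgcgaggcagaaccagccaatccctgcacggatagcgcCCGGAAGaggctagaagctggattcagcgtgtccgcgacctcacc
MRPL36, GRCh38 chr5:1799808-1799957, minus strand: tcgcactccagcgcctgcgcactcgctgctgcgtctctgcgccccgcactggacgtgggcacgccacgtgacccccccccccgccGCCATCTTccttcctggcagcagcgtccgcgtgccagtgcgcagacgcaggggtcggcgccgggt
MRPS30, GRCh38 chr5:44808827-44808976, plus strand: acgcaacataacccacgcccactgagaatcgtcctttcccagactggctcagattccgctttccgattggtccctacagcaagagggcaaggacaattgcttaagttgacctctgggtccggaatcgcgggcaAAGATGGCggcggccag
MRPL17, GRCh38 chr11:6683311-6683460, minus strand: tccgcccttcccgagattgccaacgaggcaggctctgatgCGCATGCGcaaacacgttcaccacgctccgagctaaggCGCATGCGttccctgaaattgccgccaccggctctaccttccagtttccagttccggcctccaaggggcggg
MRPS9, GRCh38 chr2:105037949-105038098, plus strand: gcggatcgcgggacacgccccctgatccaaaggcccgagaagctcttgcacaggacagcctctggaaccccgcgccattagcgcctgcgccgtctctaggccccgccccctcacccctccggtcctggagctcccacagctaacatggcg

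Median responses are given for members with and without a match, and differences between them were not tested. Between the lines in +Met medium the median log2 fold change was -0.66 for the 30 members with the ETS core and -0.64 for the 39 without it, and it was -0.72 for the 21 with the YY1 core and -0.57 for the 48 without it. In HEK293T between media it was -0.23 with the ETS core and -0.09 without it, and -0.14 with the YY1 core and -0.19 without it. The 3 members with an NRF1 match had a median of -0.73 in HEK293T between media and -0.96 between the lines in +Met medium, against -0.17 and -0.61 for the 66 without one, and in −Met+Hcy medium the order turned, with -0.04 against -0.44.

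The mean summed level of the set was lower in R1 than in HEK293T in both media, with overlap between libraries. Summed over the 78 members and scaled to the library total, HEK293T held 8778, 7976 and 9402 CPM in +Met medium and 7815, 9345 and 10154 CPM in −Met+Hcy medium, or 8719 ± 715 and 9105 ± 1188 CPM (mean ± SD, n = 3). R1 held 6338, 8622 and 5780 CPM in +Met medium and 7853, 5857 and 7189 CPM in −Met+Hcy medium, or 6913 ± 1506 and 6966 ± 1017 CPM (n = 3). Replicate 2 of R1 in +Met medium lay within the range of HEK293T, so in +Met medium the groups overlapped, and in −Met+Hcy medium replicate 1 of HEK293T lay just below replicate 1 of R1. On the scale of the test (TMM, trimmed mean of M values, which sets the bulk of genes equal) the sums were 10312 ± 1149 and 8802 ± 1523 CPM in HEK293T and 6415 ± 1584 and 6675 ± 1289 CPM in R1, and in +Met medium the 2 lines then did not overlap. In bulk RNA, fewer copies per cell and a larger share of other RNA cannot be told apart.

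The balance between the subunits differed between the lines. The summed level of the small subunit genes over that of the large subunit genes was 0.427, 0.427 and 0.425 in HEK293T in +Met medium and 0.432, 0.411 and 0.413 in −Met+Hcy medium. In R1 the same ratio was 0.467, 0.446 and 0.4796 in +Met medium and 0.459, 0.467 and 0.478 in −Met+Hcy medium. Each of the 6 R1 libraries had a higher ratio than each of the 6 HEK293T libraries, a comparison within the library that does not depend on its scaling and that was not put to a test. With rows of a symbol added the order held with a narrower gap. The nearest libraries then had small and large subunit sums of 2486 and 5494 CPM (HEK293T −Met+Hcy replicate 1) and of 2736 and 5976 CPM (R1 +Met replicate 2). Trends with GC content and length act within a library and were not removed from the ratio.

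**Figure D1:**
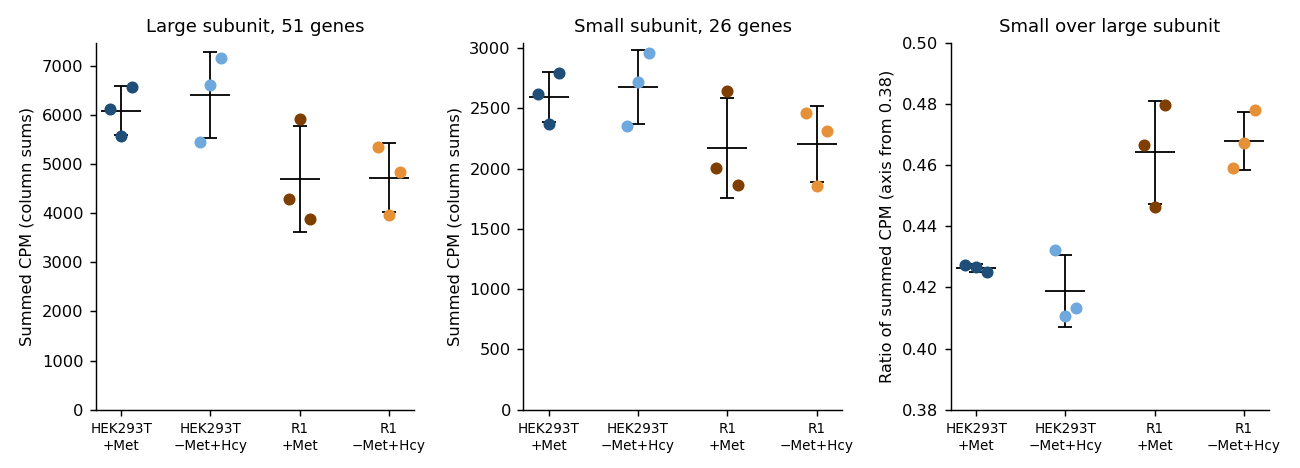
Summed level of the 51 large subunit and 26 small subunit genes in each library (points, CPM scaled to library totals) with the mean and SD of 3 libraries, and the ratio of the 2 sums, whose axis starts at 0.38. The ratio lies between 0.411 and 0.432 in HEK293T and between 0.446 and 0.4796 in R1.

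Per kilobase of the canonical transcript, MRPL37, MRPL51 and MRPL12 were the most abundant members, at 290, 233 and 220 CPM per kb averaged over the 12 libraries. MRPL12 is the homologue of the bacterial stalk protein bL12 and also interacts with the mitochondrial RNA polymerase. MRPL30, MRPL19 and MRPL42 were the least abundant, at 2.41, 8.68 and 9.20 CPM per kb, and their canonical transcripts of 4435, 7825 and 15557 bases are long beside the median of 1242 bases over the members, so that a value per kilobase depends on which isoform is taken. MRPL12 was at 226, 280, 206 and 168 CPM per kb in HEK293T +Met, HEK293T −Met+Hcy, R1 +Met and R1 −Met+Hcy, on library totals. With TMM scaling its means, not divided by length, were 269, 273, 192 and 157 CPM in the same order. In R1 −Met+Hcy replicate 3 was the lowest library, at 84.9 CPM on library totals against 235 and 190 CPM.

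More than one row was listed for 5 symbols. MRPS18B had 7 rows, which differed by at most 2 counts in any library, and MRPS12 had 2 rows with identical counts, so each kept row holds only a share of the reads of its gene. The rows of MRPL23 differed by at most 27 counts, and MRPL45 and MRPS36 had a minor second row of 824 and 4 counts against 19207 and 7238. Levels of MRPS18B, MRPS12 and MRPL23 are therefore uncertain, while ratios between groups rest on rows that moved alike.

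In +Met medium the question was how the resistant clone differs from its parent before any stress. Of the 78 members, 75 were lower in R1, with a median log2 fold change of -0.64 against 0.02 for all 17162 genes, of which 48% were lower. The test (edgeR quasi-likelihood on all 12 libraries, Benjamini-Hochberg over all genes) passed 9 members as lower and 0 as higher, where 4.48% of all genes passed as lower and 5.69% as higher. An absolute log2 fold change over 1 as well left 4 lower and 0 higher, against 2.95% and 4.71% of all genes. By DESeq2 the counts were 25 lower and 0 higher, against 7.95% and 8.85%, and at an unadjusted p under 0.05 they were 44 and 0, against 12.5% and 13.6%. The 3 libraries of R1 lay below the 3 of HEK293T in 51 members and above them in none, against 20.7% and 22.2% of all genes. All 9 members that passed belong to the large subunit, 9 of 51 against 0 of 26 in the small subunit, whose 26 members were all lower with a median of -0.50.

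The largest fall was in MRPL54 (chr19:3762682-3768575), a mitochondria-specific protein of the large subunit. Its level was 127, 83.8 and 130 TMM-scaled CPM in HEK293T and 29.0, 57.2 and 24.8 in R1, the scale of every level of a single member given from here on. The highest R1 library stayed below the lowest HEK293T library, and the log2 fold change was -1.62 ± 0.44 (SE, edgeR adjusted p = 0.0384).

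MRPL48 (chr11:73787872-73865133), also mitochondria-specific, stood at 96.7, 90.5 and 106 CPM in HEK293T and at 29.6, 50.1 and 26.8 CPM in R1, a log2 fold change of -1.46 ± 0.35 (adjusted p = 0.0211). MRPL47 (chr3:179588285-179604649), the homologue of bacterial uL29 near the exit of the nascent chain, stood at 131, 120 and 133 CPM against 48.4, 67.2 and 33.0 CPM, or -1.37 ± 0.30 (adjusted p = 0.0135). In both genes replicate 2 of R1 was the highest of its group, as in MRPL54.

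MRPL1 (chr4:77862830-77952785), the protein of the L1 stalk beside the exit site for tRNA, was at 83.1, 78.7 and 103 CPM in HEK293T and 30.2, 52.1 and 28.9 CPM in R1, or -1.25 ± 0.31 (adjusted p = 0.0249). MRPL4 (chr19:10251901-10260055), a homologue of bacterial uL4, was at 217, 163 and 195 CPM against 102, 98.6 and 88.4 CPM, or -0.99 ± 0.22 (adjusted p = 0.0144). The R1 libraries agreed more closely for MRPL4 than for MRPL1. MRPS30 (chr5:44808947-44820428), a large subunit protein despite its symbol, was at 102, 96.9 and 111 CPM against 51.3, 64.5 and 50.4 CPM, or -0.90 ± 0.22 (adjusted p = 0.0252). The remaining 3 that fell were MRPL18, MRPL11 and MRPL9, named here after their values were seen, with log2 fold changes of -0.98, -0.92 and -0.68.

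Members that did not pass included some with a similar fold change and a larger standard error. MRPS12, the homologue of the bacterial decoding-site protein uS12, was at 57.6, 39.5 and 61.4 CPM in HEK293T and at 16.4, 27.3 and 14.8 CPM in R1, which gave -1.44 ± 0.60 (adjusted p = 0.149). MRPS18A, a large subunit paralogue, gave -0.47 ± 0.17 (adjusted p = 0.0994). MRPL12 gave -0.49 ± 0.26 (adjusted p = 0.271) and MRPL58, the peptidyl-tRNA hydrolase built into the large subunit, -0.88 ± 0.34 (adjusted p = 0.12). All 4 passed when replicate 3 of R1 in −Met+Hcy medium, which is in neither group, was left out of the shared estimate of spread. Their adjusted p was then 0.00214 for MRPS12, 0.0214 for MRPS18A, 0.0346 for MRPL12 and 0.0471 for MRPL58, with fold changes that moved by less than 0.01. The 3 members with a positive value, MRPL10, MRPL28 and MRPL49, had log2 fold changes of at most 0.12.

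How many members passed depended on single libraries. With replicate 3 of R1 in −Met+Hcy medium left out, which is in neither of these groups but enters the shared estimate of spread, 47 members passed as lower against 15.7% of all genes, 34 of the large and 13 of the small subunit, with the 9 among them. Without replicate 2 of R1 in +Met medium 28 passed against 6.52%, and 4 of them were in the small subunit, and without replicate 2 of R1 in −Met+Hcy medium 17 passed against 5.23%. Leaving out replicate 1 or replicate 3 of R1 in +Met medium, or replicate 3 of HEK293T in +Met medium, left 0 passing, against 1.15%, 1.39% and 1.57% of all genes. Without replicate 1 of HEK293T 1 passed against 1.81% and without replicate 2 of HEK293T 3 passed against 2.33%, while the number of members with a negative value stayed between 74 and 77 in each of these. With library totals in place of TMM the median difference of the 11641 genes whose mean log2 CPM exceeds 2 moved from -0.04 to 0.31 and that of the members from -0.66 to -0.31, with 63 of 78 lower and 3 passing against 2.08% of all genes. Such a scaling moves all genes of a library alike and so leaves their distance to the members in place. With the trend with GC content and length removed from each library, which can move that distance, the members' median was -0.68 against -0.30 for all genes, a distance of -0.39 in place of -0.66, with 39 passing as lower against 21.4%.

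**Figure D2:**
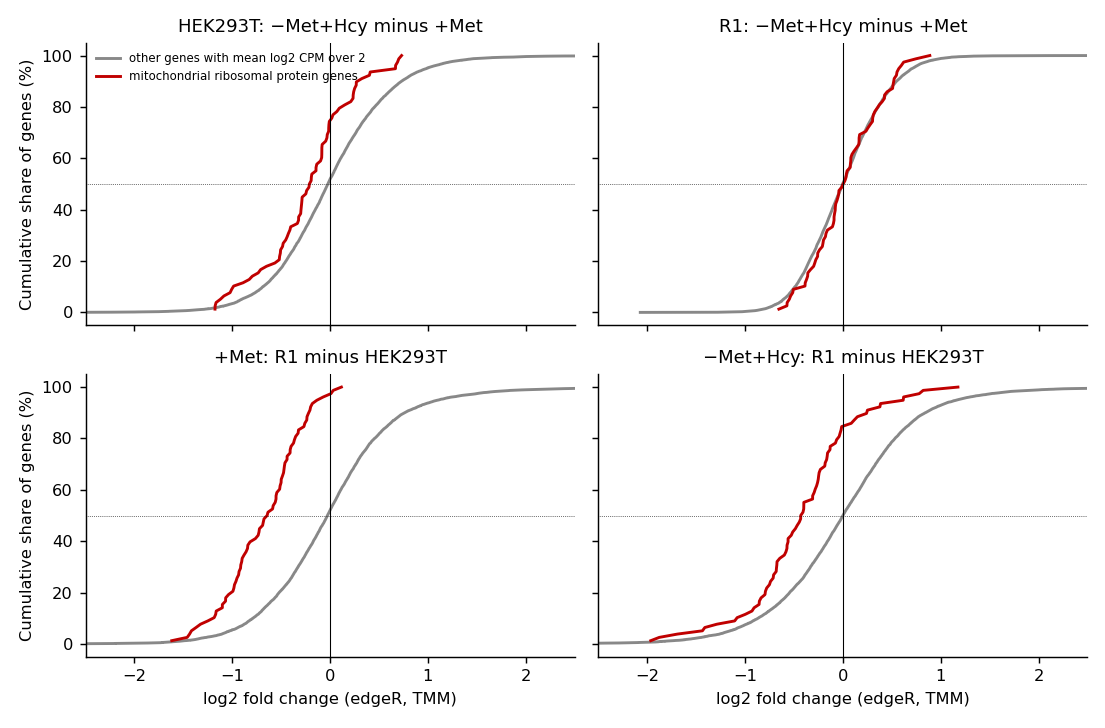
Cumulative share of genes against log2 fold change (edgeR, TMM scaling) for the 78 members (red) and the other genes whose mean log2 CPM exceeds 2 (grey) in 4 comparisons. In +Met medium the red line lies left of the grey one over most of its length, with 75 of 78 members below 0, and for R1 between media the 2 lines overlie each other.

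Between the lines in −Met+Hcy medium, 66 of 78 members were lower in R1, with a median log2 fold change of -0.42 against -0.01 for all genes, of which 50.4% were lower and 49.3% higher. The test passed 9 as lower and 1 as higher, where 6.76% of all genes passed as lower and 7.2% as higher. Of these, 6 lower and 1 higher had an absolute log2 fold change over 1, against 4.66% and 5.29% of all genes, and at an unadjusted p under 0.05 there were 28 lower and 3 higher, against 14.5% and 15%. The libraries did not overlap in 26 members that were lower and 3 that were higher, against 18.9% and 13.6% of all genes. By class, 6 of the 9 that fell were large subunit genes and 3 small subunit genes, 6 had a bacterial counterpart and 3 were mitochondria-specific.

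MRPS9 (chr2:105038069-105099960), the homologue of bacterial uS9 whose tail reaches the tRNA in the peptidyl site, was the member that was higher in R1. It stood at 36.04, 41.6 and 37.4 CPM in HEK293T and at 61.1, 66.8 and 132 CPM in R1, and every R1 library was above every HEK293T library. The log2 fold change was 1.18 ± 0.26 (edgeR adjusted p = 0.0105), and without replicate 3 of R1 it was 0.74 ± 0.13 (adjusted p = 0.00107).

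Among the members that fell, MRPL54 was at 72.2, 93.0 and 122 CPM in HEK293T and 41.9, 25.5 and 10.9 CPM in R1, or -1.88 ± 0.45 (adjusted p = 0.0163). MRPL36 (chr5:1798385-1801366), the homologue of the small zinc-binding bacterial protein bL36, was at 79.95, 110 and 129 CPM against 60.2, 33.5 and 24.2 CPM, or -1.44 ± 0.36 (adjusted p = 0.0198). In both genes replicate 3 of R1 was the lowest library, and without it the values were -1.51 (adjusted p = 0.00922) and -1.18 (adjusted p = 0.0189).

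MRPS18B was at 12.4, 15.7 and 18.7 CPM in HEK293T and 7.27, 6.25 and 4.07 CPM in R1, or -1.41 ± 0.27 (adjusted p = 0.00489), in a row that holds a share of its reads. MRPL17 (chr11:6680385-6683340) was at 94.7, 137 and 156 CPM against 81.8, 52.2 and 46.0 CPM, or -1.11 ± 0.30 (adjusted p = 0.0283). MRPS12 had the largest value, -1.96 ± 0.61 (adjusted p = 0.0492), from 48.6, 62.5 and 77.7 CPM in HEK293T and 28.6, 17.4 and 2.35 CPM in R1. The last of these was 41 counts in replicate 3 against 437 and 296 in the others, for a transcript of 59.65% GC, and without that library the fold change was -1.45 (adjusted p = 0.00467). The call of MRPS12 was kept in 9 of 23 alternatives and in 2 of the 12 with a library left out.

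MRPL4, MRPL54 and MRPS30 fell in both media in the full fit. In −Met+Hcy medium MRPL4 and MRPL54 passed in 21 each of 23 alternatives. There MRPS30 passed in 10, and in 2 of the 12 with a library left out. MRPL4 was at 143, 172 and 182 CPM against 92.7, 87.7 and 54.4 CPM in −Met+Hcy medium, or -1.08 ± 0.22 (adjusted p = 0.00701), and MRPS30 at 87.5, 103 and 102 CPM against 47.8, 46.7 and 80.5 CPM, or -0.74 ± 0.22 (adjusted p = 0.0445). The 2 comparisons share no library but were fitted together. MRPL20, named here after its values were seen, at -0.78, and MRPS2, at -0.68, completed the 9. MRPS36, at 0.82 ± 0.27 (adjusted p = 0.0661), and MRPS6, at 0.78 ± 0.26 (adjusted p = 0.0677), lay without overlap on the higher side and did not pass. MRPL12 gave -0.79 ± 0.27 (adjusted p = 0.0681), MRPL58 -0.57 ± 0.34 (adjusted p = 0.278) and MRPS18A -0.53 ± 0.17 (adjusted p = 0.057). With replicate 3 of R1 left out, MRPL12 passed at -0.52 ± 0.18 (adjusted p = 0.0472) and MRPS18A at -0.52 ± 0.16 (adjusted p = 0.0265).

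Leaving replicate 3 of R1 out gave 73 of 78 members lower, 21 that passed as lower and 1 as higher, against 14.6% and 15.7% of all genes, and all 10 members of the full fit were among them. With the libraries of this medium alone, where that library makes up one of 3 in its group, edgeR passed 0 members in either direction, against 1.34% of genes as lower and 1.67% as higher. DESeq2 on all libraries passed 17 as lower and 3 as higher, against 10.1% and 10.6%. With the trend with GC content and length taken out of each library, the members' median was -0.14 against 0.04 for all genes, with 12 lower and 4 higher passing, against 12.2% and 13.7%, and 6 of the 9 that fell were among the 12. MRPL4, MRPL20 and MRPS2 were the calls lost, and over all alternatives their values shrank to as little as -0.36, -0.35 and -0.04. When replicate 3 of HEK293T in this medium was left out 2 members passed as lower and 0 as higher, against 3.52% and 3.35% of all genes, and with its replicate 2 out 3 passed as lower against 3.16%. With replicate 2 of R1 out 4 passed as lower and 3 as higher, against 5.46% and 6.26%, and the members' median was -0.28. With replicate 1 of R1 out 17 passed as lower against 7.09%, and with replicate 2 of R1 in +Met medium out 3 as higher against 7.2%.

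**Figure D3:**
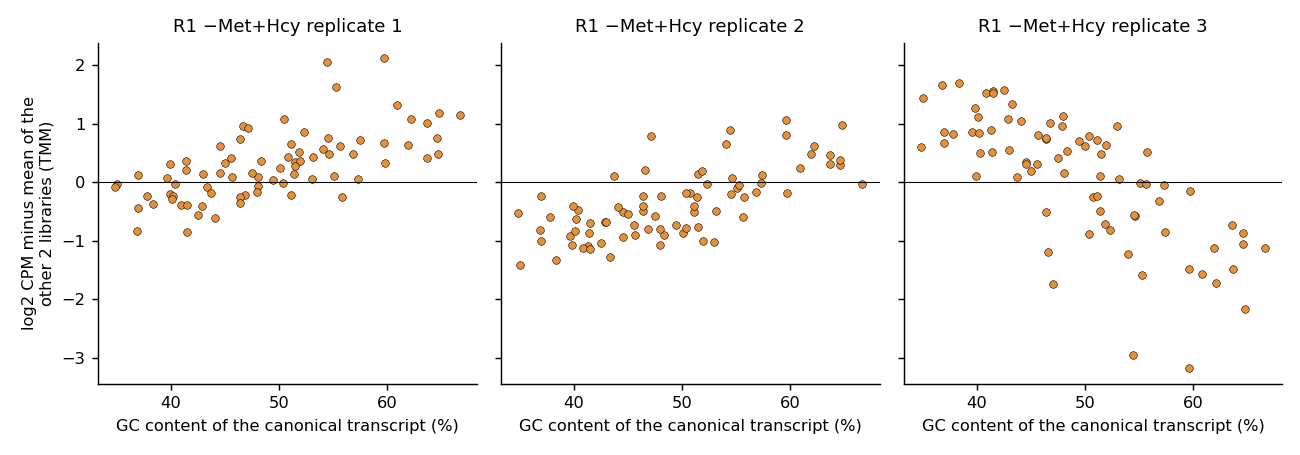
Level of each of the 78 members in one library of R1 in −Met+Hcy medium relative to the mean of the other 2 (log2 CPM, TMM scaling) against the GC content of its canonical transcript. The points rise with GC content in replicates 1 and 2 and fall in replicate 3, with rho of 0.687, 0.693 and -0.756, values that share each library's own GC trend. The reference of replicates 1 and 2 includes replicate 3, so a falling trend in it gives a rise in theirs. The 3 values are therefore not independent.

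The switch of medium in HEK293T gave few calls. Of 78 members, 58 were lower and 20 higher in −Met+Hcy medium, where 47.5% of all genes were lower and 51.9% higher. The median log2 fold change was -0.20 against 0.03 for all genes, and 4 passed as lower and 1 as higher, where 2.78% of all genes passed as lower and 4.25% as higher. All 4 that fell and not the 1 that rose had an absolute log2 fold change over 1, against 1.59% of all genes as lower and 3.04% as higher. At an unadjusted p under 0.05 there were 16 lower and 4 higher, against 9.49% and 12.9%. The libraries did not overlap in 26 members that were lower and 7 that were higher, against 20.6% and 24.8% of all genes. With library totals in place of TMM the direction of the set turned, with 44 higher and 34 lower and a median difference of 0.08 in place of -0.21, while that of the 11641 genes whose mean log2 CPM exceeds 2 went from -0.03 to 0.27. On that scale 2 members passed as lower and 4 as higher, against 1.24% and 10.4% of all genes. With the trend with GC content and length removed, the members' median was -0.33 against -0.25 for all genes, a distance of -0.08 in place of -0.24. The median also rested on single libraries. Without replicate 1 of HEK293T in −Met+Hcy medium it was -0.07, with 45 lower and 33 higher, and over the other 5 HEK293T libraries left out in turn it lay between -0.29 and -0.14.

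MRPS9 was at 88.1, 87.5 and 82.3 CPM in +Met medium and 36.04, 41.6 and 37.4 CPM in −Met+Hcy medium, the tightest separation of the 5. Its log2 fold change was -1.17 ± 0.26 (edgeR adjusted p = 0.0198). MRPS6 (chr21:34073224-34143034), the homologue of bacterial bS6 on the platform of the small subunit, was at 53.4, 42.3 and 54.5 CPM against 20.02, 25.4 and 29.4 CPM, or -1.01 ± 0.26 (adjusted p = 0.0394).

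MRPL47 was at 131, 120 and 133 CPM in +Met medium and 47.1, 57.6 and 71.9 CPM in −Met+Hcy medium, or -1.12 ± 0.30 (adjusted p = 0.0413). MRPS36 (chr5:69217760-69230158), which is not a ribosomal protein, was at 47.5, 46.5 and 52.5 CPM against 17.95, 21.7 and 29.4 CPM, or -1.08 ± 0.27 (adjusted p = 0.0343). MRPS2 (chr9:135499984-135504673), the homologue of bacterial uS2 at the back of the small subunit, was the one that rose, from 135, 110 and 125 CPM to 192, 218 and 205 CPM, or 0.73 ± 0.16 (adjusted p = 0.0214). In none of these 5 did the libraries of the 2 media overlap. MRPS2 did not pass with the trend with GC content and length removed, where MRPL36, MRPL40 and MRPL44 were the members passing as higher.

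The paralogues of bacterial S18 differed in their values. MRPS18C, the small subunit protein that is the closest homologue, was at 94.3, 84.0 and 85.6 CPM in +Met medium and at 31.8, 39.9 and 45.3 CPM in −Met+Hcy medium, with no overlap and a log2 fold change of -1.17 ± 0.39 (adjusted p = 0.0919). Without replicate 3 of R1 in −Met+Hcy medium, a library of neither group, the value was -1.17 ± 0.17 and passed (adjusted p = 0.000412). MRPS18A gave -0.03 ± 0.17 (adjusted p = 0.949) and MRPS18B 0.15 ± 0.26 (adjusted p = 0.786), and differences between the 3 were not tested. Between the lines in +Met medium MRPS18C gave -1.10 ± 0.39 (adjusted p = 0.0927), and without that library -1.10 ± 0.17 (adjusted p = 0.000463).

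All 5 calls in HEK293T were lost when any 1 of the 6 HEK293T libraries was left out, with 0 members passing in either direction, against 0.429% to 1.11% of all genes as lower and 1.27% to 1.91% as higher, so they rest on all 6. Without replicate 1 of R1 in +Met medium 1 member passed as lower, against 1.73%. With replicate 3 of R1 in −Met+Hcy medium left out 17 passed as lower and 3 as higher, against 12.5% and 15.2% of all genes, with all 5 among them. DESeq2 passed 8 as lower and 1 as higher, against 5.52% and 7.52%. With the replicate number as a block, 1 passed as lower and 0 as higher, against 1.25% and 2.35%.

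**Figure D4:**
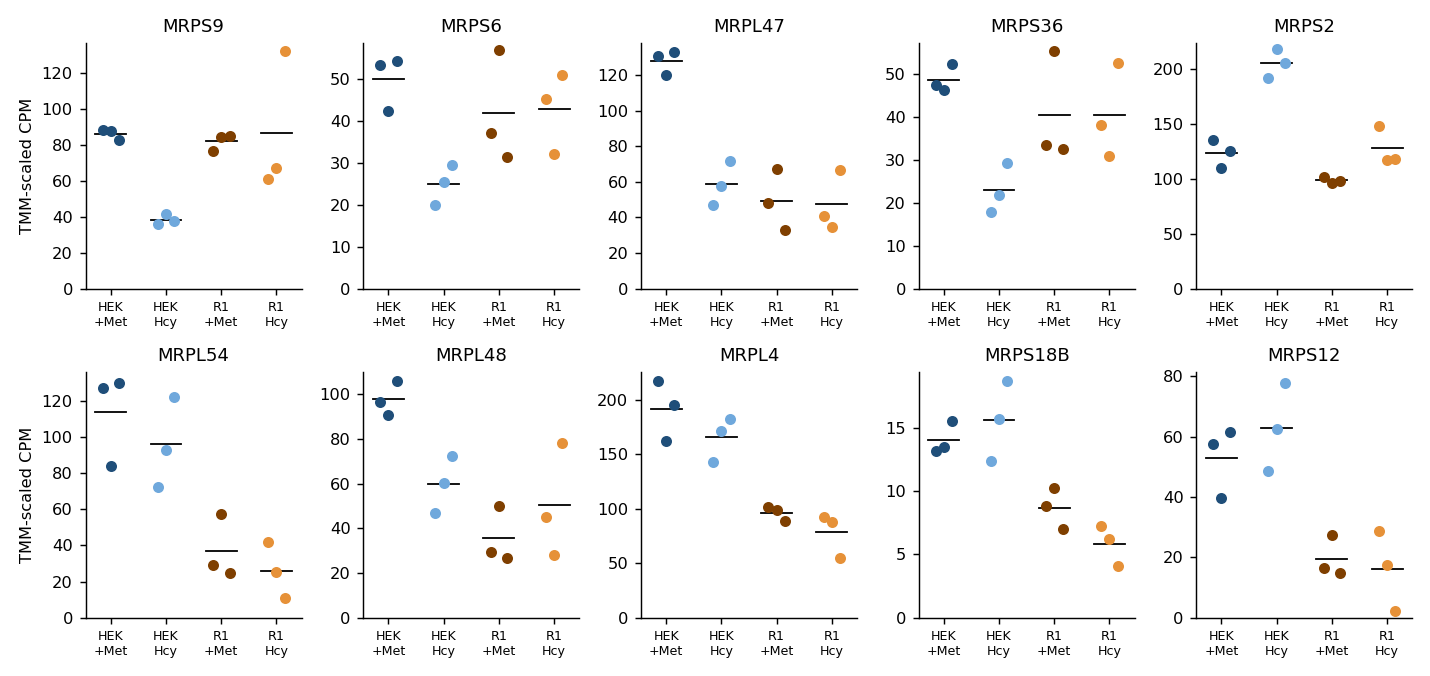
Level of 10 members in each library (points, TMM-scaled CPM, each axis from 0) with the mean of each group of 3 as a bar. MRPS9, MRPS6, MRPL47 and MRPS36 drop from HEK293T in +Met to HEK293T in −Met+Hcy medium and MRPS2 rises, while MRPL54, MRPL4, MRPS18B and MRPS12 separate HEK293T from R1.

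In R1 the same switch of medium gave no member that passed edgeR's test in either direction, where 0.00583% of all genes, a single one, passed as higher and 0% as lower. By DESeq2 0 members passed as well, and at an unadjusted p under 0.05 there were 4 higher and 1 lower, against 5.68% and 2.11%. The libraries did not overlap in 2 members that were higher and 5 that were lower, against 4.89% and 5.72%. The median log2 fold change of the members was 0.01, with 40 higher and 38 lower against 48.1% and 51.3% of all genes, and with library totals it was -0.03, with 35 higher and 43 lower. That balance turned on single libraries. The median was 0.23, with 59 higher, without replicate 2 of R1 in +Met medium and 0.17, with 50 higher, without replicate 2 in −Met+Hcy medium. It was -0.12, with 48 lower, without replicate 3 in +Met medium, -0.08, with 45 lower, without its replicate 1, -0.07, with 48 lower, without replicate 3 in −Met+Hcy medium and -0.02, with 41 lower, without its replicate 1. The smallest p belonged to MRPS17, at 20.2, 23.5 and 17.0 CPM in +Met medium and 31.7, 24.3 and 56.4 CPM in −Met+Hcy medium, or 0.89 ± 0.27 (adjusted p = 0.622). Replicate 3 was its highest library, and without it the value was 0.47 ± 0.17 (adjusted p = 0.584). MRPS2 was at 102, 96.1 and 97.9 CPM against 148, 117 and 118 CPM, or 0.37 ± 0.16, and MRPL44, which has an RNase III fold, at 0.51 ± 0.23. On the lower side stood MRPS34, at 173, 182 and 153 CPM against 129, 124 and 69.5 CPM, or -0.65 ± 0.24, then MRPS18B at -0.57 ± 0.27 and MRPL2, a homologue of bacterial uL2, at -0.36 ± 0.17, with adjusted p = 0.622 for each of these 6. When replicate 3 of R1 in −Met+Hcy medium was left out MRPS34 was at -0.42 ± 0.17 (adjusted p = 0.633) and MRPS18B at -0.37 ± 0.22 (adjusted p = 0.805).

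Whether the response differed between the lines was tested as an interaction. No member passed in either direction, where 0% of all genes passed as higher in R1 and 0.0583% as lower, by DESeq2 0 members passed, and at an unadjusted p under 0.05 there were 10 higher and 0 lower, against 4.62% and 5.05%. The difference was positive in 49 members and negative in 29, against 46.6% and 53.4% of all genes, with a median of 0.19, and with library totals the median turned to -0.16 with 34 positive and 44 negative. Leaving out single libraries moved it from 0.10, without replicate 1 of HEK293T in −Met+Hcy medium, to 0.43, with 60 positive, without replicate 2 of R1 in +Met medium. It was 0.11 without replicate 3 of R1 in +Met medium, 0.38 without replicate 2 of R1 in −Met+Hcy medium and 0.29 without replicate 3 of HEK293T in that medium. With the trend with GC content and length removed it was 0.46, against 0.33 for all genes. The smallest p belonged to MRPS9, with a difference of 1.25 ± 0.36 on the log2 scale (adjusted p = 0.32), then MRPS36 with 1.09 ± 0.38 (adjusted p = 0.399) and MRPS6 with 1.04 ± 0.37 (adjusted p = 0.4). In the opposite direction the smallest p belonged to MRPS18B, at -0.72 ± 0.37 (adjusted p = 0.548), MRPS34, at -0.57 ± 0.33 (adjusted p = 0.594), and MRPS2, at -0.36 ± 0.23 (adjusted p = 0.632). Without replicate 3 of R1 in −Met+Hcy medium, MRPS9 was the 1 member to pass, at 0.81 ± 0.17 (adjusted p = 0.0398), against 0.398% of all genes, and MRPS34 was at -0.34 ± 0.23 (adjusted p = 0.494). With all libraries, no member was thus shown to respond differently in the 2 lines.

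**Figure D5:**
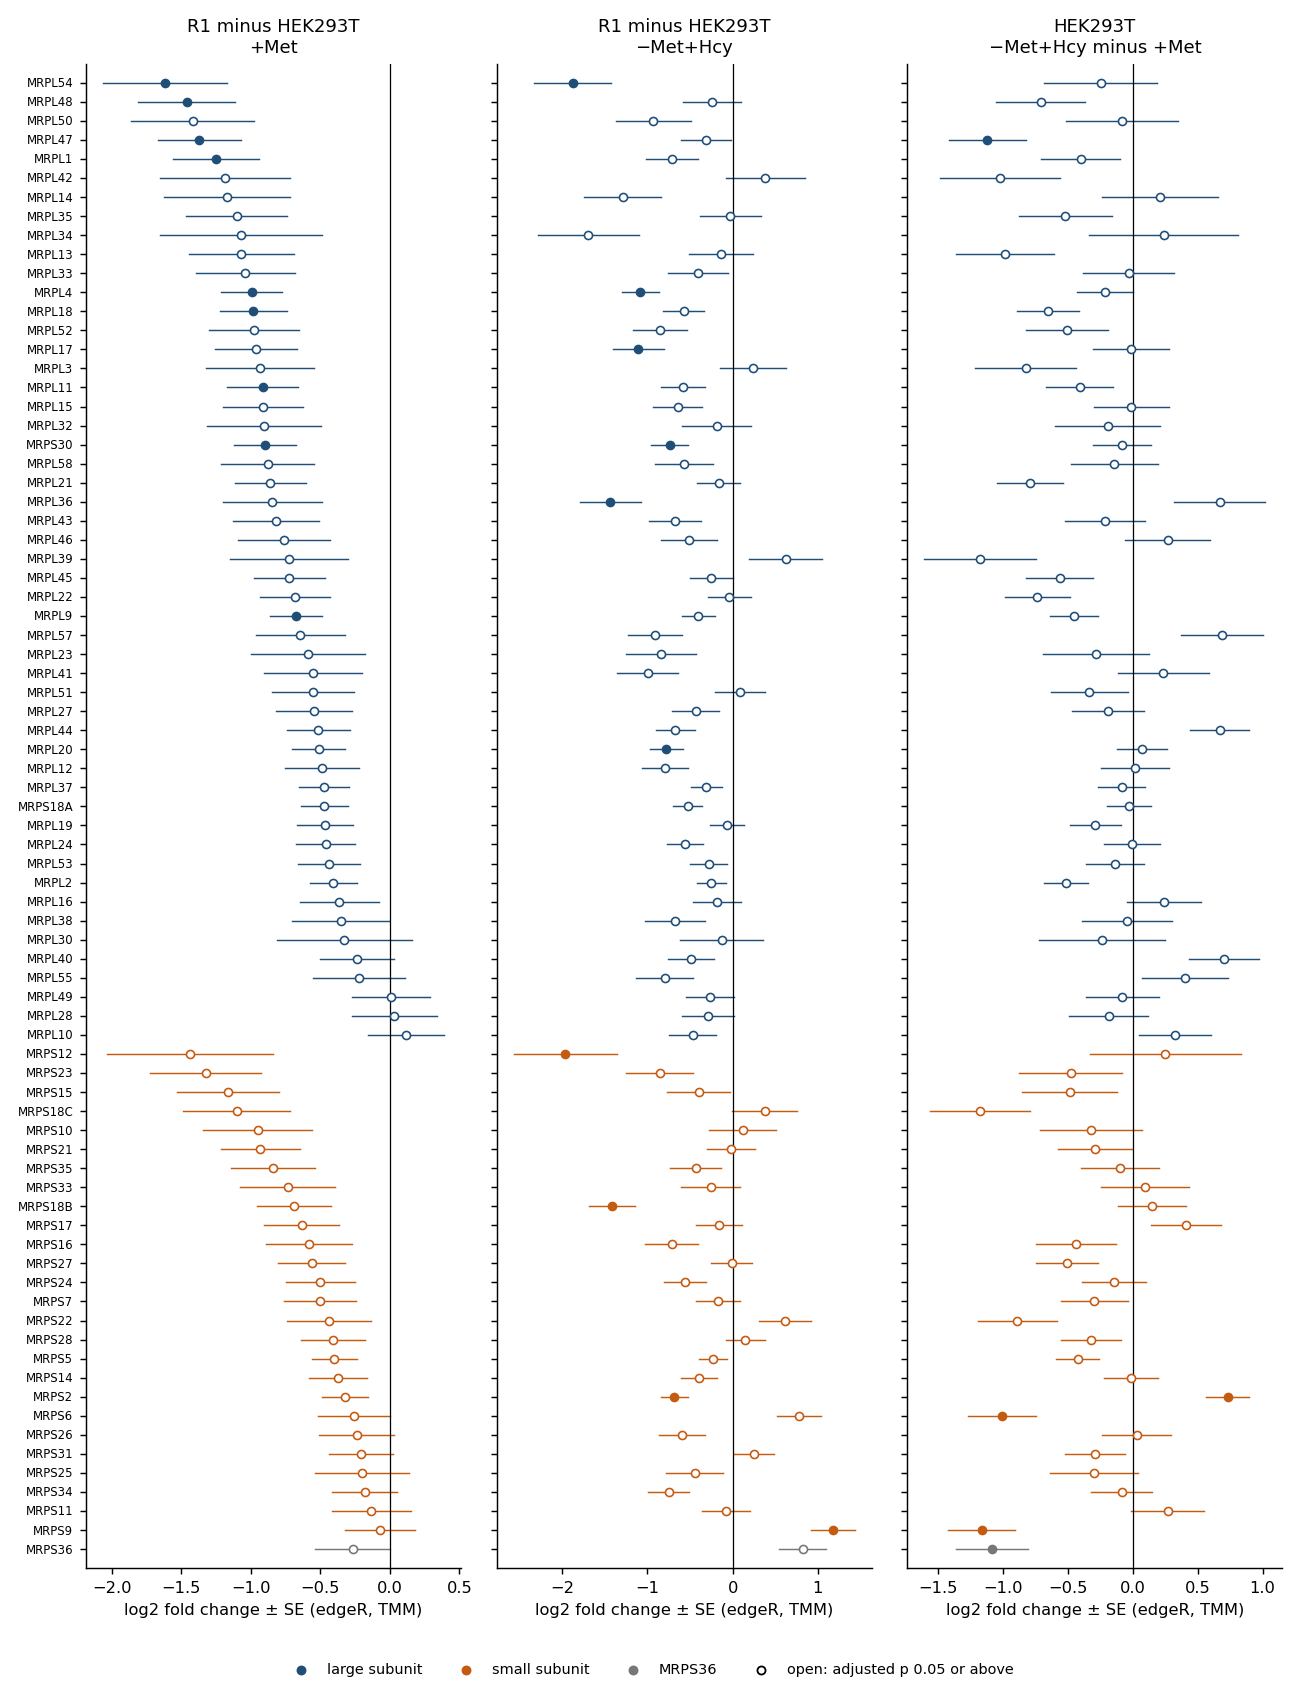
Log2 fold change with its SE for each of the 78 members in 3 comparisons, ordered by subunit and by the value in +Met medium; filled points passed at an adjusted p under 0.05. In +Met medium 75 members lie below 0 and the 9 filled points are large subunit genes, and in −Met+Hcy medium MRPS9 is the filled point above 0.

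The members moved together from library to library. Relative to the other 2 libraries of its group, replicate 2 of R1 in +Met medium was higher in 75 of 78 members with a median of 0.68 on the log2 scale, and replicate 1 and replicate 3 of HEK293T in −Met+Hcy medium were higher in 2 and in 76. The median over 11617 genes was between -0.03 and 0.06 in every library. The cytosolic ribosomal protein genes followed the same libraries. Their summed level in R1 in +Met medium was 60462, 92356 and 51973 TMM-scaled CPM, with replicate 2 the highest, and in HEK293T in −Met+Hcy medium 86511, 107463 and 133165. The 13 mitochondrially encoded mRNAs ran the other way in R1 in +Met medium, at 38467, 26031 and 43512 CPM. What part this shared movement has in the spread between replicates was not tested.

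In the lists that follow, counts passing are to be read beside the shares of all genes. As higher and lower these were 4.25% and 2.78% in HEK293T between media. Between the lines they were 5.69% and 4.48% in +Met medium and 7.2% and 6.76% in −Met+Hcy medium. Without replicate 3 of R1 in −Met+Hcy medium, 2593 and 2138 of 17069 genes passed in HEK293T. Between the lines 2911 and 2673 then passed in +Met medium and 2680 and 2488 in −Met+Hcy medium. Of 5 subunits that lack an MRP symbol, 1 gene passed, and it did so between the lines in both media. GADD45GIP1, the large subunit protein mL64, fell in R1 in +Met medium by 1.07 on the log2 scale (adjusted p = 0.00521) and in −Met+Hcy medium by 0.94 (adjusted p = 0.0075). DAP3, the GTP-binding protein of the small subunit, had log2 fold changes between -0.13 and -0.07 in the 4 comparisons of groups, and CHCHD1, AURKAIP1 and PTCD3 did not pass in any of them.

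Factors that build the mitochondrial ribosome gave other calls in HEK293T. Of 26 assembly genes, 2 passed as higher in −Met+Hcy medium and 0 as lower, with a median of 0.06. These were DDX28, a DEAD-box helicase of large subunit assembly, at 1.46 ± 0.30 (adjusted p = 0.0139), and MRM3, which methylates the large rRNA, at 1.10 ± 0.29 (adjusted p = 0.041). NGRN gave 0.42 (adjusted p = 0.186). Between the lines, 23 of the 26 were lower in R1 in +Met medium with 1 passing, and 22 in −Met+Hcy medium with 5 passing as lower, among them DDX28 at -1.57 and MRM3 at -1.15. With replicate 3 of R1 in −Met+Hcy medium left out the counts were 5 higher and 1 lower in HEK293T, 8 lower and 1 higher between the lines in +Met medium and 9 lower and 1 higher in −Met+Hcy medium.

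Of 16 mitochondrial translation factors, 0 passed in HEK293T between media, by edgeR, and 2 fell in R1 in +Met medium, among them MRRF, the ribosome recycling factor, by 0.84 (adjusted p = 0.0151). TUFM, the elongation factor that brings tRNA to the ribosome, gave -0.25 ± 0.28 (adjusted p = 0.638) in HEK293T and -0.30 ± 0.28 (adjusted p = 0.536) between the lines in +Met medium. TACO1 and TSFM gave 0.40 and 0.47 in HEK293T, neither past the threshold. At an unadjusted p under 0.05 the 16 held 0 higher and 1 lower in HEK293T, against 12.9% and 9.49% of all genes. Without replicate 3 of R1 in −Met+Hcy medium 3 passed as higher and 2 as lower in HEK293T, where 2593 and 2138 of 17069 genes passed.

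All 6 genes of mitochondrial transcription were lower in R1 in both media, with medians of -0.87 and -0.79, and 1 passed in each. In +Met medium it was TFB2M, the transcription initiation factor, at -1.45 (adjusted p = 0.0165), and in −Met+Hcy medium TEFM, the elongation factor, at -1.19 (adjusted p = 0.0353). TFAM, which packages mitochondrial DNA and starts its transcription, gave -0.85 ± 0.32 (adjusted p = 0.113) in +Met medium, and POLRMT, the RNA polymerase, -0.96 ± 0.41 (adjusted p = 0.159). In HEK293T between media TEFM gave 0.78 (adjusted p = 0.194), TFB2M -0.52 (adjusted p = 0.371) and MTERF2 -0.26 (adjusted p = 0.53). Without replicate 3 of R1 in −Met+Hcy medium 4 of the 6 passed as lower in each medium.

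Of 10 nuclear regulators, MYC, a transcription factor of growth and ribosome genes, was the one that passed. It rose in HEK293T in −Met+Hcy medium by 0.91 ± 0.16 on the log2 scale (adjusted p = 0.00615) and was lower in R1 at -2.56 in +Met medium (adjusted p = 6.84e-06) and -3.22 in −Met+Hcy medium (adjusted p = 1.46e-06). GABPA, whose core CCGGAAG was searched in the promoters, gave 0.64 ± 0.23 (adjusted p = 0.125) in HEK293T between media and -0.45 ± 0.23 (adjusted p = 0.247) between the lines in +Met medium. NRF1 gave -0.10 ± 0.20 (adjusted p = 0.815) and 0.02 ± 0.20 (adjusted p = 0.976) in the same comparisons. PPARGC1A, the coactivator of mitochondrial biogenesis, gave 1.41 ± 0.52 (adjusted p = 0.131) in HEK293T between media, at a level of 0.38 to 3.04 TMM-scaled CPM over the 12 libraries. With replicate 3 of R1 in −Met+Hcy medium left out, 3 of the 10 passed as higher and 1 as lower in HEK293T, and 2 and 4 between the lines in +Met medium. In that setting 2593 and 2138 of 17069 genes passed in HEK293T, and 2911 and 2673 between the lines.

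The mRNAs that the mitochondrial ribosome translates took another course. In HEK293T 12 of the 13 were lower in −Met+Hcy medium with a median log2 fold change of -0.97, and 5 fell, among them MT-ND6 by 1.82 (adjusted p = 0.00407), MT-ND5 by 1.68 (adjusted p = 0.0238) and MT-CYB by 1.44 (adjusted p = 0.0201). In R1 0 passed edgeR's test, with 13 of 13 higher, a median of 0.79 and 6 at an unadjusted p under 0.05, against 5.68% of all genes. There, 10 were higher and 3 lower with a median of 0.23 when replicate 3 of R1 in −Met+Hcy medium was left out. Between the lines they were lower in R1 in all 13 in +Met medium, none passing, and higher in all 13 in −Met+Hcy medium, 6 passing. Replicate 3 of R1 had the highest sum of any library, 93752 CPM against 38725 and 46888 in its group, and without it 11 of 13 were higher, 6 passing, and the median went from 1.27 to 0.66. In HEK293T 9 fell without it, and between the lines in +Met medium 4 then passed as lower in R1. The 13 are cut from shared precursor transcripts and are not independent.

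The cytosolic ribosomal protein genes, 79 in number, had the largest median difference of these lists between the lines in +Met medium. There all 79 were lower in R1 with a median of -1.49 and 62 passed, and in −Met+Hcy medium 64 were lower with a median of -0.54 and 17 passed. In HEK293T 78 of 79 were lower in −Met+Hcy medium with a median of -0.72 and 17 passed, among them RPL14, at -1.75 (adjusted p = 0.00316), RPL7 and RPL23. Without replicate 3 of R1 in −Met+Hcy medium the counts passing were 79, 35 and 39. The mitochondrial set thus had a smaller median than the cytosolic set in each of these comparisons, a difference that was not tested, and cytosolic ribosomal protein genes have many processed pseudogenes that can share reads with them.

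Of 17 mitochondrial aminoacyl-tRNA synthetase genes, which charge the tRNAs used by this ribosome, PARS2 was the one that rose in HEK293T in −Met+Hcy medium, at 1.45 ± 0.32 (adjusted p = 0.0203). The median of the list was -0.10 there and -0.16 between the lines in +Met medium, where 1 passed as higher and 0 as lower. TARS2 and EARS2 gave 0.48 and -0.51 in HEK293T and did not pass. Without replicate 3 of R1 in −Met+Hcy medium 3 passed as higher and 3 as lower in HEK293T, and 3 and 8 between the lines in +Met medium. In HEK293T both counts are near the share over all genes, 2593 and 2138 of 17069.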

How the data were processed

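RNA was measured in 12 libraries, 4 groups of 3. The authors aligned reads with kallisto 0.48.0 to GRCh38, added the estimated counts of transcripts to genes and deposited them as whole numbers, and these were used as they stand. Near-identical genes and haplotype copies can split or share such estimated counts. No column of per-sample values was left out, 0 in all. Genes with a summed count under 10 were left out. The main test was edgeR 4.0.16 (R 4.3.3, limma 3.58.1), quasi-likelihood with TMM scaling, on all 12 libraries with group as the only term, Benjamini-Hochberg over 17162 genes, at an adjusted p under 0.05, two-sided. DESeq2 1.42.0 was an alternative, as were RLE scaling, library totals, other filters, a replicate block, the libraries of one comparison alone, a robust spread, removal of the trend with GC content and length (loess, span 0.3), rows of a symbol added and each library left out. TMM-scaled CPM were used for single genes and for sums of the cytosolic ribosomal protein genes and the mitochondrially encoded mRNAs. CPM from library totals were used for markers and for values per kilobase, the latter with rows of a symbol added. Sums over the members were from library totals, with TMM-scaled sums given beside them. Lengths, GC content and positions came from GENCODE release 44 (GRCh38), matched by identifier for 75 members and by symbol for 3. The SE of a log2 fold change was derived as its absolute value divided by the square root of the quasi-likelihood F statistic. The test was run on simulated data with known changes. Libraries of a group differed by more than sampling noise (chi-square per gene of 7.37 or more).

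Named members were, per comparison, the 5 largest changes in each direction that passed with no overlap between libraries, or, where fewer than 3 passed, the 3 smallest p in each direction. To these were added the 3 highest and lowest per kilobase, those with several rows, the MRPS18 paralogues and a few of known function. In the other lists the 3 smallest p in HEK293T and 6 fixed genes were named. The members and the lists were chosen with earlier results of these data known.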

Additional observations from a re-analysis of the deposited data

How the results depend on the processing

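Leaving out one library moved the counts of members that passed, except in R1 between media, where they stayed at 0. In HEK293T between media it ran from 0 to 17 lower and from 0 to 3 higher, in R1 against HEK293T from 0 to 47 lower and 0 higher in +Met medium and from 2 to 21 lower and 0 to 3 higher in −Met+Hcy medium, and in the interaction from 0 to 1 higher and 0 lower. The libraries that decide are named with each result. Counts in HEK293T (lower and higher) were 2 and 4 with library totals (chosen after seeing the data; 1.24% and 10.4% of all genes), 20 and 6 with the compared libraries alone (15.5% and 18.6%), 24 and 3 with the GC and length trend removed (18.1% and 4.77%), 39 and 4 with it removed and replicate 3 of R1 in −Met+Hcy medium left out (33.7% and 10.6%), 8 lower with DESeq2 (5.52%), and 4 and 0 with an absolute log2 fold change over 1 as well. In +Met medium between the lines they were 3, 37, 39, 63 and 25 lower under the first 5 of these, against 2.08%, 13.4%, 21.4%, 37.8% and 7.95% of all genes, and 4 under the last (2.95%). In −Met+Hcy medium the higher count was 3 with library totals (7.21%), 0 and 0 (lower and higher) with the compared libraries alone (1.34% and 1.67%), 4 higher with the trend removed (13.7%), 34 and 4 with that library also out (22.2% and 15.7%), and 17 and 3 with DESeq2 (10.1% and 10.6%). In the interaction, 1 higher passed with the trend removed (2.7%) and 9 higher and 1 lower with that library also out (10.9% and 2.33%). RLE scaling, filterByExpr, no filter, a robust spread and added rows moved none of these counts by over 1.5 times. The causes of the shifts were not tested.

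The replicate number as a block gave 1 lower and 0 higher in HEK293T (1.25% and 2.35% of all genes) and 4 lower in +Met medium between the lines (2.59%). The numbers do not pair the libraries: of 18 same-numbered pairs 6 had correlated deviations over 0.1 (range -0.718 to 0.595), and 9 of 36 library and group combinations matched best on their own number. The mean summed level of the members in HEK293T in +Met medium went from 8719 to 10312 CPM with TMM-scaled library sizes. The log2 fold changes of the 24 calls named for single members kept their sign in all 23 alternatives, passing in 399 of the combinations and not in 153.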
